A study of Mus musculus with 18 samples.

Results

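The genes described here are 9 genes of cellular iron handling in mouse embryonic stem cells (mESCs): *Tfrc*, *Slc11a2* and *Steap3*, which bring iron into the cell, *Fth1*, *Ftl1* and *Ncoa4*, which store and release it, *Slc40a1*, which exports it, and *Ireb2* and *Aco1*, which sense it. They were chosen by gene symbol, with earlier results of these data known. They are 9 of the 24369 genes in the deposited table of expression values. Their mRNA was measured in 18 RNA-seq libraries of E14 mESCs of the genotype Rex1GFPd2-Cas9, which carry a destabilized GFP reporter of *Rex1* (listed as *Zfp42*) and a Cas9 transgene. A time course held days 0, 1, 2 and 3 of differentiation, with 3 libraries per day. A second set held wild-type, Nprl2-/- (*Nprl2* KO) and Tsc2-/- (*Tsc2* KO) mESCs of the same genotype that were sorted for GFP (GFP+ mESCs), with 2 libraries each. *Nprl2* encodes a subunit of GATOR1, and *Nprl2* and *Tsc2* both encode negative regulators of the growth kinase mTORC1. The KO cells were clones in which an exon was deleted from both alleles, and the labels do not say whether the 2 libraries of a genotype came from separate clones or cultures, so that p values measure only the spread between these libraries. GFP+ cells were kept on feeder fibroblasts with serum and LIF before sorting. The medium in which the day 0 libraries of the time course were kept is not given in the sources used here, and a change of medium and the time since that change cannot be told apart.

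Iron enters most cells bound to transferrin, through the transferrin receptor encoded by *Tfrc*. In the endosome the ferrireductase encoded by *Steap3* reduces it, and the transporter DMT1, encoded by *Slc11a2*, carries it into the cytosol. Iron that is not used is stored in ferritin, a shell of heavy chains (*Fth1*), which oxidize iron, and light chains (*Ftl1*), and the receptor encoded by *Ncoa4* carries ferritin to lysosomes for breakdown. Ferroportin, encoded by *Slc40a1*, is the known exporter of iron from cells. The iron regulatory proteins encoded by *Aco1* (IRP1) and *Ireb2* (IRP2) bind a stem-loop in mRNA, the iron-responsive element. Binding in a 5′ UTR blocks translation, and binding in the 3′ UTR of *Tfrc* protects the mRNA from decay, so that the level of a ferritin or ferroportin mRNA does not by itself give the level of its protein.

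Iron-responsive elements are the feature by which several of these mRNAs are known to be controlled together, and they are printed here to show which of the 9 carry the motif. The letters searched, on the sense strand only, were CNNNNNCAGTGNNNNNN, with all 5 bases after the first C able to pair (G with T allowed) with the last 5 bases. The search covered 27222 transcripts of GENCODE M21 (GRCm38) that match a protein-coding RefSeq transcript of the files, and 324 of them (1.19%) held a match. The motif was found in 4 of the 9 genes, 1 time each in the 5′ UTRs of *Fth1*, *Ftl1* and *Slc40a1* and 4 times in the 3′ UTR of *Tfrc*. Each sequence below has 29 bases, and the capitals mark the 6 bases of the loop.
Fth1, 5′ UTR, chr19:9982732-9982760, plus strand: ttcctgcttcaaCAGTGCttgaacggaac
Ftl1, 5′ UTR, chr7:45459779-45459807, minus strand: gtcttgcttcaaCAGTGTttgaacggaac
Slc40a1, 5′ UTR, chr1:45925465-45925493, minus strand: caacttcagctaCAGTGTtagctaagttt
Tfrc site 1, 3′ UTR, chr16:32631219-32631247, plus strand: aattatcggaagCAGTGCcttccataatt
Tfrc site 2, 3′ UTR, chr16:32631598-32631626, plus strand: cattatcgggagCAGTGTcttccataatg
Tfrc site 3, 3′ UTR, chr16:32631663-32631691, plus strand: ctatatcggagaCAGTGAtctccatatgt
Tfrc site 4, 3′ UTR, chr16:32631710-32631738, plus strand: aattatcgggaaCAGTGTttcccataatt
Slc11a2, 3′ UTR of 1 of its 2 transcripts, chr15:100395153-100395181, minus strand: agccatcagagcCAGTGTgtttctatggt
The *Slc11a2* sequence paired at 4 of 5 positions and is shown because it is a known variant with an imperfect stem. At least 4 pairs were found in 9.94% of the transcripts searched, so that this match is less particular than the others. A match with at least 4 pairs was not found in *Steap3*, *Ncoa4*, *Ireb2* and *Aco1* or in the other *Slc11a2* transcript.

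The total of a library was 8610357 to 13780861 estimated counts for GFP+ cells and 12503005 to 15305054 for the time course, and 3 counts correspond to 0.196 to 0.348 CPM (counts scaled to the library total) over all libraries, for counting error only. All 9 genes passed the filter on low counts in both sets. All 8 mESC markers listed were detected in each group, with a summed level of 2268 to 5135 TPM (transcript abundance scaled for length and for the library total). The sum does not show single markers. From day 0 to day 3, mean TPM went from 403 to 1.36 for *Esrrb* and from 775 to 12.8 for *Zfp42*. *Pou5f1* was still at 1233 TPM at day 3, and *Utf1* (411 to 521) and *Lin28a* (196 to 443) were higher. Of the targeted genes, *Nprl2* was listed at 8.09 and 8.65 TPM in *Nprl2* KO libraries against 16.1 and 16.99 in wild-type, and *Tsc2* at 18.8 and 20.3 TPM in *Tsc2* KO against 45.0 and 44.9 in wild-type, so that each was lower in its own KO without being absent. In bulk samples fewer cells of a type and less RNA per cell cannot be told apart.

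At day 0 the 9 mRNAs spanned 4 orders of magnitude in TPM. *Ftl1* ranked 4 among 24369 genes by mean TPM, and *Fth1* ranked 115. *Tfrc*, *Ncoa4*, *Ireb2* and *Aco1* ranked between 1240 and 3372, and *Slc11a2* and *Steap3* ranked 6860 and 7809. *Slc40a1* ranked 14087, with only 10 to 11 estimated counts in each day 0 library. The ferritin chains thus stood far above the genes for uptake and sensing, and the exporter stood at the bottom.

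**Figure D1:**
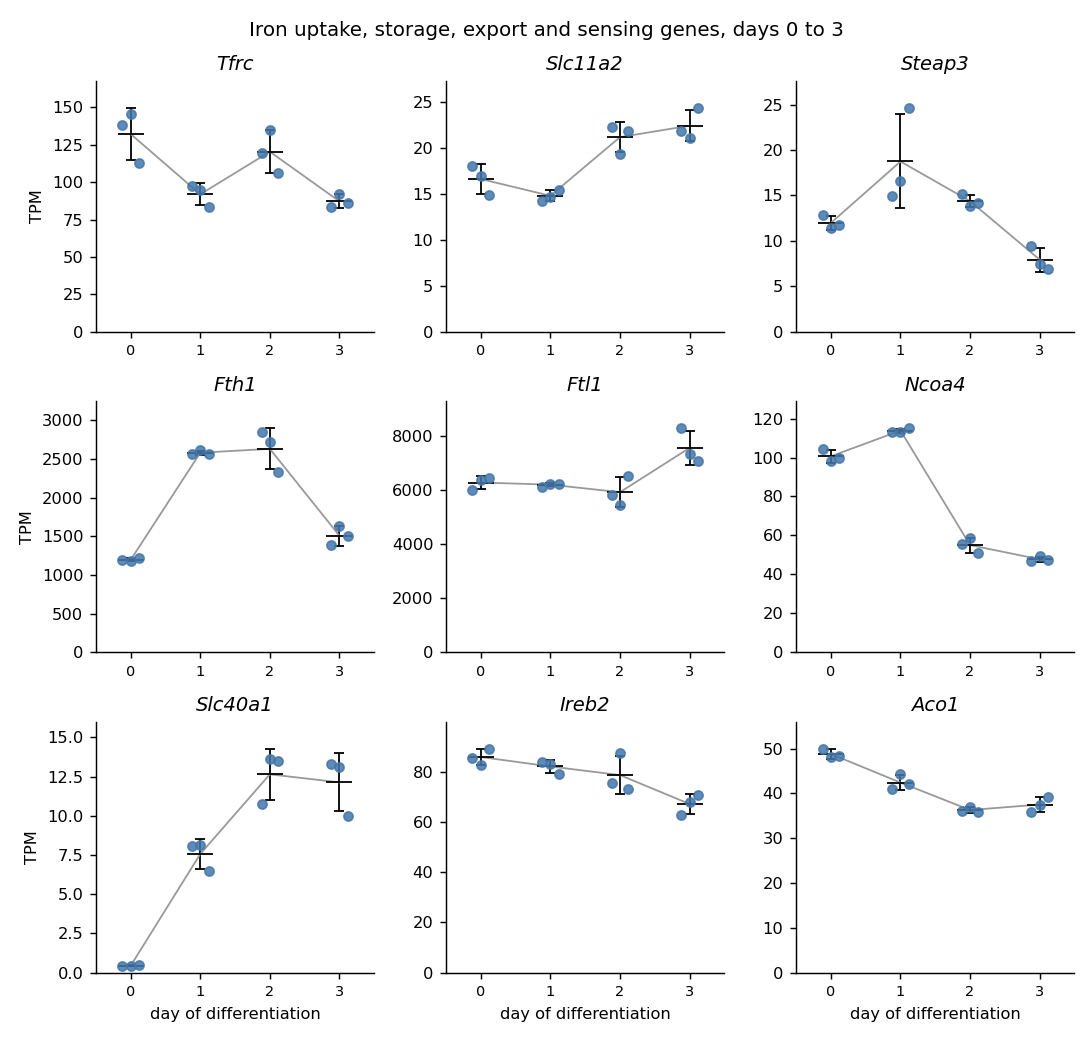
TPM of the 9 genes (vertical axes, each from 0) by day of differentiation (horizontal axes), with 1 point per library and bars for the mean and SD of 3 libraries. *Slc40a1* leaves its day 0 level of 0.443 TPM by day 1, *Fth1* is high on days 1 and 2 only, and *Ncoa4* drops between days 1 and 2.

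The export gene *Slc40a1* changed most of the 9 genes between day 0 and each later day. It was listed at 0.453, 0.402 and 0.473 TPM in the day 0 libraries, 8.09, 8.14 and 6.47 at day 1, 10.8, 13.7 and 13.5 at day 2, and 13.3, 13.1 and 10.004 at day 3. All 9 later libraries were above all 3 day 0 libraries. By the quasi-likelihood test of edgeR, adjusted by Benjamini-Hochberg over all genes and used for every fold change below, *Slc40a1* rose by 4.16 ± 0.22 (log2 fold change ± SE, adjusted p = 7.61e-12) from day 0 to day 1, a 17.9-fold change. The rise from day 0 was 4.78 ± 0.21 at day 2 (adjusted p = 2.34e-13) and 4.69 ± 0.21 at day 3 (adjusted p = 2.62e-13). *Slc40a1* rose again between days 1 and 2, by 0.62 ± 0.13 (adjusted p = 5.37e-04), and days 2 and 3 differed by -0.10 ± 0.13 (adjusted p = 0.606). On the log2(TPM + 1) scale, which understates changes of low genes, the day 1 rise was 2.56.

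Markers of other cell states and types were summed beside *Slc40a1*. The 5 formative markers (*Fgf5*, *Otx2*, *Dnmt3b*, *Pou3f1*, *Sox3*) summed to 108 to 133 TPM at day 0 and to 1242 to 1853 TPM on later days. The 9 feeder fibroblast markers summed to 10.2 to 18.2 TPM at day 0, 12.8 to 15.5 at day 1, 29.8 to 32.6 at day 2 and 34.5 to 42.5 at day 3. For the 8 endoderm markers the sums were 7.62 to 11.8 TPM at day 0, 4.38 to 5.21 at day 1, 10.1 to 10.9 at day 2 and 10.4 to 11.5 at day 3, with 3 to 6 of them under 1 TPM in a group. The 7 erythroid markers held 1.86 to 3.83 TPM at day 0, 1.67 to 2.80 at day 1, 4.39 to 7.63 at day 2 and 3.84 to 6.65 at day 3. The formative sums were thus above those of day 0 on each later day, and the fibroblast and erythroid sums on days 2 and 3. The part of any of these markers in the rise of *Slc40a1* was not tested.

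The ferritin chains followed separate courses. *Fth1* was listed at 1190, 1178 and 1219 TPM at day 0, 2561, 2613 and 2571 at day 1, 2845, 2716 and 2334 at day 2, and 1384, 1637 and 1501 at day 3. The day 1 and day 2 libraries lay above all others. *Fth1* rose by 1.18 ± 0.08 from day 0 to day 1 (adjusted p = 1.99e-10), differed by -0.08 ± 0.07 between days 1 and 2 (adjusted p = 0.338), and fell by 0.85 from day 2 to day 3 (SE 0.07, adjusted p = 3.92e-07). At day 3 it was still 0.25 ± 0.07 above day 0 (adjusted p = 0.00639), but without day 3 replicate 2 this difference was 0.17 with an adjusted p of 0.0537.

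*Ftl1* was listed at 6033, 6372 and 6473 TPM at day 0, 6145, 6250 and 6244 at day 1, 5828, 5447 and 6527 at day 2, and 8301, 7345 and 7078 at day 3. Days 0 to 2 overlapped and day 3 lay above them. The change from day 0 was 0.05 ± 0.07 at day 1 (adjusted p = 0.516), -0.13 ± 0.07 at day 2 (adjusted p = 0.093) and 0.18 ± 0.07 at day 3 (adjusted p = 0.0188). The day 3 rise rested on single libraries, with an adjusted p of 0.099 without day 0 replicate 1 and 0.172 without day 3 replicate 1. From day 2 to day 3 *Ftl1* rose by 0.31 ± 0.07 (adjusted p = 0.00167). The hairpin rows *Mir692-1* and *Mir692-2* share sequence with the *Ftl1* transcript (8 and 34 of 79 stretches of 31 bases), and *Mir692-3* was not compared. Together these *Mir692* rows were assigned counts of 6.04% to 6.45% of those of *Ftl1* in the time course and of 0.309% to 0.953% in GFP+ cells. Adding these counts to *Ftl1*, an alternative chosen after seeing the data, gave 0.18 for day 3 against day 0 with an adjusted p of 0.0189.

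The ratio of *Fth1* to *Ftl1* TPM summarizes both courses. It was 0.190 ± 0.006 (SD, n = 3) at day 0, 0.416 ± 0.003 at day 1, 0.448 ± 0.079 at day 2 and 0.201 ± 0.030 at day 3. All day 1 and day 2 libraries were above all day 0 libraries, while day 3 overlapped day 0. An exact two-sided permutation test gave p = 0.1 for days 1 and 2 against day 0, the smallest p that 3 libraries against 3 allow, and p = 0.6 for day 3. Day 2 replicate 3 stood apart from its group, at 0.358 against 0.488 and 0.499.

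**Figure D2:**
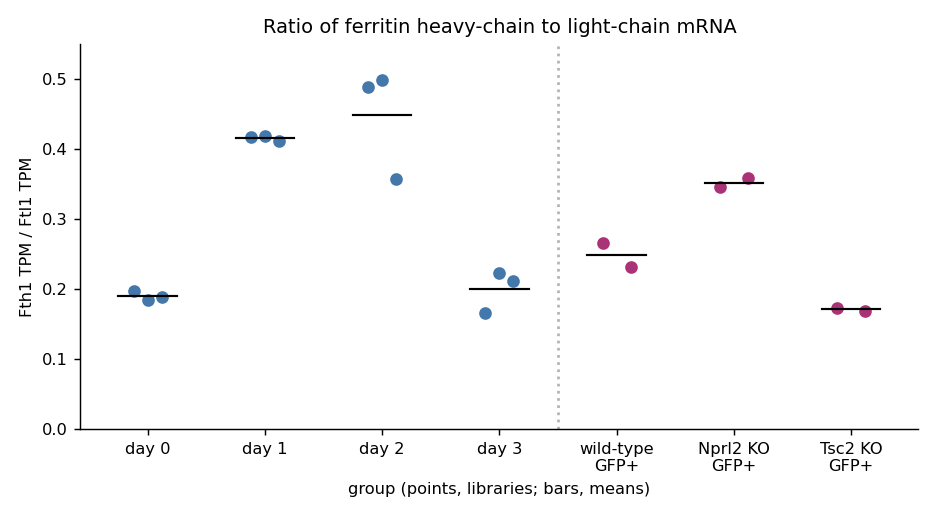
Ratio of *Fth1* to *Ftl1* TPM (vertical axis, no unit) in each library of the 4 days and the 3 GFP+ genotypes (horizontal axis), with points for libraries and bars for group means. The ratio is about 0.19 to 0.20 at days 0 and 3 and above 0.35 at days 1 and 2, and in GFP+ cells it is highest in *Nprl2* KO and lowest in *Tsc2* KO.

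*Ncoa4*, the receptor that takes ferritin to lysosomes, took a different course from both chains. It was listed at 104, 98.0 and 99.7 TPM at day 0, 113, 113 and 115 at day 1, 55.4, 58.7 and 51.0 at day 2, and 46.6, 49.3 and 47.3 at day 3. The 4 days did not overlap. *Ncoa4* rose by 0.25 ± 0.06 from day 0 to day 1 (adjusted p = 0.00146) and fell by 1.16 from day 1 to day 2 (SE 0.06, adjusted p = 1.34e-11). It fell by a further 0.25 to day 3 (SE 0.06, adjusted p = 0.00544), where it was 0.447-fold of day 0. Between days 1 and 2 *Ncoa4* mRNA thus fell to 0.448-fold, while the estimate for *Fth1* was 0.944-fold.

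Among the uptake genes, *Tfrc* was listed at 138, 146 and 113 TPM at day 0, 97.5, 94.5 and 83.7 at day 1, 120, 135 and 106 at day 2, and 83.3, 92.3 and 85.9 at day 3. Days 1 and 3 lay below day 0, and day 2 overlapped it. *Tfrc* fell by 0.45 from day 0 to day 1 (SE 0.11, adjusted p = 0.00206) and was 0.69 lower at day 3 (log2 fold change -0.69, SE 0.11, adjusted p = 4.87e-05). Its rise between days 1 and 2, 0.28 ± 0.11 (adjusted p = 0.0357), was no longer called when any of 5 libraries was left out, with adjusted p up to 0.161. From day 2 to day 3 it fell by 0.51 (SE 0.11, adjusted p = 0.00281).

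*Slc11a2* had 14.8 to 18.02 TPM at day 0, 14.2 to 15.4 at day 1, 19.3 to 22.3 at day 2 and 21.1 to 24.3 at day 3. Days 2 and 3 lay above days 0 and 1. The rise from day 0 was 0.35 ± 0.08 at day 2 (adjusted p = 5.15e-04) and 0.34 ± 0.08 at day 3 (adjusted p = 7.08e-04). *Steap3* was listed at 12.8, 11.4 and 11.7 TPM at day 0, 14.98, 16.6 and 24.6 at day 1, 15.1, 13.9 and 14.1 at day 2, and 9.46, 7.42 and 6.96 at day 3. It rose by 0.71 ± 0.15 to day 1 (adjusted p = 6.77e-04), where replicate 3 was far above the other libraries, and fell by 0.68 from day 0 to day 3 (SE 0.16, adjusted p = 0.00149). Without day 1 replicate 3 the rise at day 1 was 0.48 and was still called. The fall from day 1 to day 2, 0.49 (log2 fold change -0.49, adjusted p = 0.00916), was -0.26 with an adjusted p of 0.0797 without that library. At day 3 the receptor and the endosomal reductase were thus both lower than at day 0, and the endosomal transporter was higher.

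The sensing genes fell. *Aco1* was listed at 49.98, 48.1 and 48.4 TPM at day 0, 40.9, 44.4 and 42.0 at day 1, 36.1, 37.0 and 35.8 at day 2, and 35.9, 37.5 and 39.2 at day 3. Days 2 and 3 lay below day 1, which lay below day 0. The log2 fold change from day 0 was -0.13 ± 0.06 at day 1 (adjusted p = 0.0508), -0.47 ± 0.06 at day 2 (adjusted p = 5.92e-07) and -0.47 ± 0.06 at day 3 (adjusted p = 5.12e-07). *Ireb2* ranged from 82.7 to 89.1 TPM at day 0, 79.2 to 83.8 at day 1, 73.2 to 87.4 at day 2 and 62.8 to 70.9 at day 3. Only day 3 lay apart from day 0, with a log2 fold change of -0.44 ± 0.07 (adjusted p = 1.28e-05). The *Ireb2* difference at day 2, -0.17 ± 0.07 (adjusted p = 0.0385), was lost when any of 4 libraries was left out, with adjusted p of up to 0.122, and with upper-quartile normalization, where it was -0.11 (adjusted p = 0.141). It was also not called with at least 10 counts in every library (adjusted p = 0.0651) or with only the 2 days compared (0.0705). In limma on log2(TPM + 1) and log2(TPM + 0.1) the adjusted p was 0.117 and 0.118.

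Of the 9 genes, 5 were called (adjusted p under 0.05) at day 1 against day 0, where 60.9% of all 14382 genes tested were called, 6 at day 2 (66.6% of all genes), and 9 at day 3 (70.9%). At day 1, 4 were higher (30.1% of all genes) and 1 lower (30.8%). At day 2, 3 were higher (34.2%) and 3 lower (32.4%), and at day 3, 4 were higher (35%) and 5 lower (35.9%). Between neighbouring days, 8 of 9 were called at day 2 against day 1 (62.1% of all genes), 3 higher (32.5%) and 5 lower (29.6%). This count was 5 without day 1 replicate 2, 5 without day 2 replicate 1, and 5 in limma on log2(TPM + 1) or log2(TPM + 0.1). At day 3 against day 2, 6 were called (31.5%), 1 higher (15.9%) and 5 lower (15.6%). Their median log2 fold change was 0.052, -0.129 and -0.441 at days 1, 2 and 3 against day 0, beside 0.001, 0.011 and -0.013 over all genes tested. Most genes changed in this time course, and the number of calls among the 9 is to be read against those shares.

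**Figure D3:**
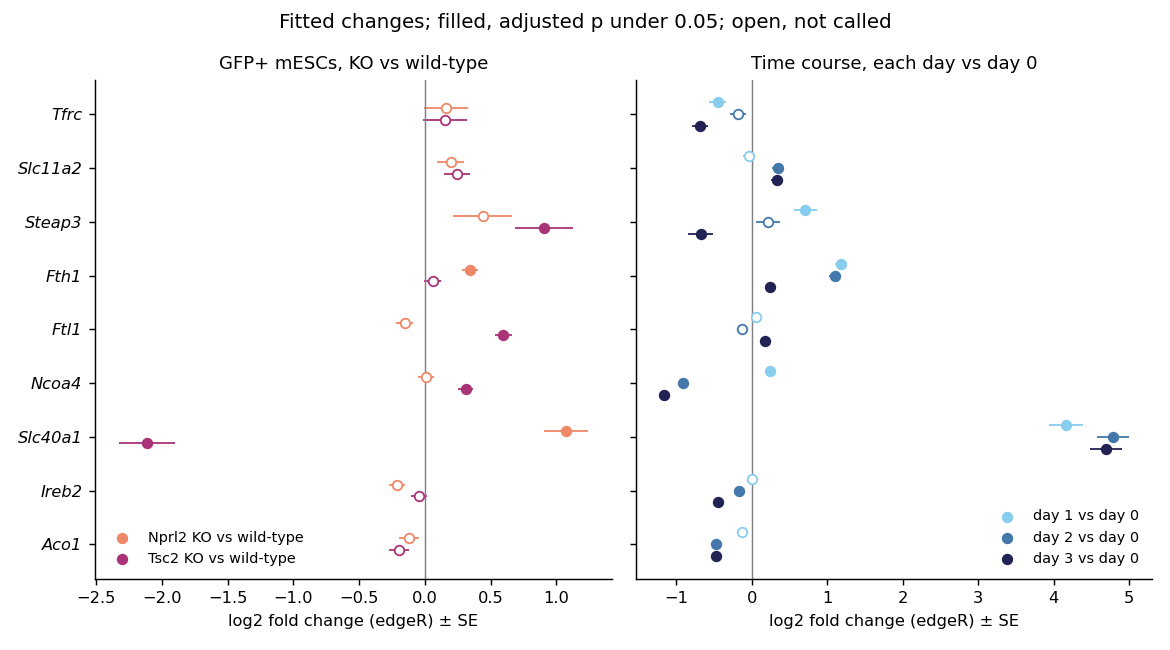
Log2 fold changes (horizontal axes, points with SE bars) of the 9 genes (vertical axis) in each KO against wild-type GFP+ mESCs (left) and on each day against day 0 (right), with filled points for adjusted p under 0.05. *Slc40a1* is the gene farthest from 0 in every comparison shown, above 0 in *Nprl2* KO and on each day and below 0 in *Tsc2* KO.

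In GFP+ mESCs, loss of *Nprl2* or *Tsc2* was compared with wild-type cells and each KO with the other. Again *Slc40a1* differed most. It was listed at 5.37 and 5.05 TPM in wild-type cells, 11.1 and 10.3 in *Nprl2* KO, with 1.44 and 1.04 in *Tsc2* KO, with 25 to 32 estimated counts in the *Tsc2* KO libraries. The 3 genotypes did not overlap. *Slc40a1* rose by 1.07 ± 0.17 in *Nprl2* KO (adjusted p = 0.003), a 2.11-fold change. It fell by 2.11 in *Tsc2* KO (SE 0.22, adjusted p = 2.58e-05), to 0.231-fold. Leaving out any library gave 1.01 to 1.13 in *Nprl2* KO and -2.37 to -1.87 in *Tsc2* KO, all called. The direct difference of *Tsc2* KO from *Nprl2* KO was -3.19 ± 0.20 (adjusted p = 3.56e-07).

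Markers were also summed in the GFP+ libraries. The formative markers summed to 389 to 467 TPM in wild-type, 536 to 631 in *Nprl2* KO, with 110 to 115 in *Tsc2* KO, the same order of genotypes as for *Slc40a1*. The 9 feeder fibroblast markers summed to 130 to 179 TPM in wild-type, 138 to 141 in *Nprl2* KO, with 46.7 and 161 in the *Tsc2* KO libraries, against 10.2 to 42.5 TPM in the time course. The part of either set of cells in the result was not tested. *Slc40a1* and *Steap3* lie on chromosome 1, where the median over 747 tested genes was 0.371 (log2 fold change, *Tsc2* KO against wild-type), beside -0.006 on the other chromosomes, and 74.4% of them were above 0. In *Nprl2* KO the chromosome 1 median was -0.008. The part of this shift in the *Steap3* and *Slc40a1* values was not tested, and for *Slc40a1* it has the opposite sign to the change.

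Of the ferritin chains, *Fth1* was highest in *Nprl2* KO and *Ftl1* in *Tsc2* KO. *Fth1* was listed at 1417 and 1319 TPM in wild-type, 1747 and 1746 in *Nprl2* KO, with 1435 and 1511 in *Tsc2* KO. Both *Nprl2* KO libraries were above all others. *Fth1* rose by 0.35 ± 0.06 in *Nprl2* KO (adjusted p = 0.0064), which was 0.30 with an adjusted p of 0.0637 without wild-type replicate 2, and differed by 0.06 ± 0.06 in *Tsc2* KO (adjusted p = 0.512). *Ftl1* was listed at 5326 and 5676 TPM in wild-type, 5056 and 4871 in *Nprl2* KO, with 8276 and 8935 in *Tsc2* KO. Here both *Tsc2* KO libraries were far above the rest. *Ftl1* rose by 0.60 ± 0.06 in *Tsc2* KO (adjusted p = 3.61e-05) and differed by -0.15 ± 0.06 in *Nprl2* KO (adjusted p = 0.187).

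Between the KOs, *Fth1* was lower in *Tsc2* KO than in *Nprl2* KO (log2 fold change -0.29 ± 0.06, adjusted p = 0.00335) and *Ftl1* was higher (0.75 ± 0.06, adjusted p = 4.15e-06). The *Fth1* to *Ftl1* ratio was 0.266 and 0.232 in wild-type, 0.345 and 0.359 in *Nprl2* KO, with 0.173 and 0.169 in *Tsc2* KO. The ratios of the genotypes did not overlap, and with 2 libraries against 2 an exact two-sided permutation test cannot give a p below 0.333. The 2 chains together held 6617 to 10447 TPM over all 18 libraries.

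*Ncoa4* was listed at 110 and 107 TPM in wild-type, 106 and 106 in *Nprl2* KO, with 136 and 139 in *Tsc2* KO. It rose by 0.31 ± 0.06 in *Tsc2* KO (adjusted p = 0.00207), while its difference in *Nprl2* KO was 0.01 ± 0.06 (adjusted p = 0.95). *Tsc2* KO exceeded *Nprl2* KO by 0.30 ± 0.06 (adjusted p = 0.00197).

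Of the uptake genes only *Steap3* was called, in *Tsc2* KO. It was listed at 17.5 and 9.82 TPM in wild-type, 19.6 and 17.03 in *Nprl2* KO, with 26.1 and 26.7 in *Tsc2* KO. The wild-type libraries thus differed from each other more than the libraries within either KO did. *Steap3* rose by 0.91 ± 0.22 in *Tsc2* KO (adjusted p = 0.0182), but with either *Tsc2* KO library left out the adjusted p was 0.0587 or 0.0777, and the change ranged from 0.59 to 1.37 over all libraries left out in turn. In *Nprl2* KO its log2 fold change was 0.44 ± 0.22 (adjusted p = 0.313), which was 0.91 with an adjusted p of 0.00881 without wild-type replicate 1.

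*Tfrc* ranged from 76.6 to 95.3 TPM in wild-type, 81.2 to 105 in *Nprl2* KO, with 90.7 to 105 in *Tsc2* KO, and the genotypes overlapped. Its log2 fold change was 0.16 ± 0.17 in *Nprl2* KO (adjusted p = 0.651) and 0.15 ± 0.17 in *Tsc2* KO (adjusted p = 0.547). *Slc11a2* was listed at 21.8 and 22.9 TPM in wild-type, 23.1 and 25.01 in *Nprl2* KO, with 24.4 and 28.2 in *Tsc2* KO, and its log2 fold changes were 0.20 ± 0.10 (adjusted p = 0.288) and 0.25 ± 0.10 (adjusted p = 0.0854).

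Of the sensing genes, *Ireb2* was listed at 94.6 and 95.0 TPM in wild-type, 77.1 and 81.2 in *Nprl2* KO, with 95.3 and 92.6 in *Tsc2* KO. The *Nprl2* KO libraries were the lowest, with a log2 fold change of -0.21 ± 0.06 (adjusted p = 0.0645), and the value in *Tsc2* KO was -0.04 ± 0.06 (adjusted p = 0.63). *Aco1* was listed at 40.6 and 41.3 TPM in wild-type, 35.6 and 37.6 in *Nprl2* KO, with 35.2 and 38.0 in *Tsc2* KO, and its log2 fold changes were -0.12 ± 0.08 (adjusted p = 0.408) and -0.20 ± 0.08 (adjusted p = 0.0745).

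**Figure D4:**
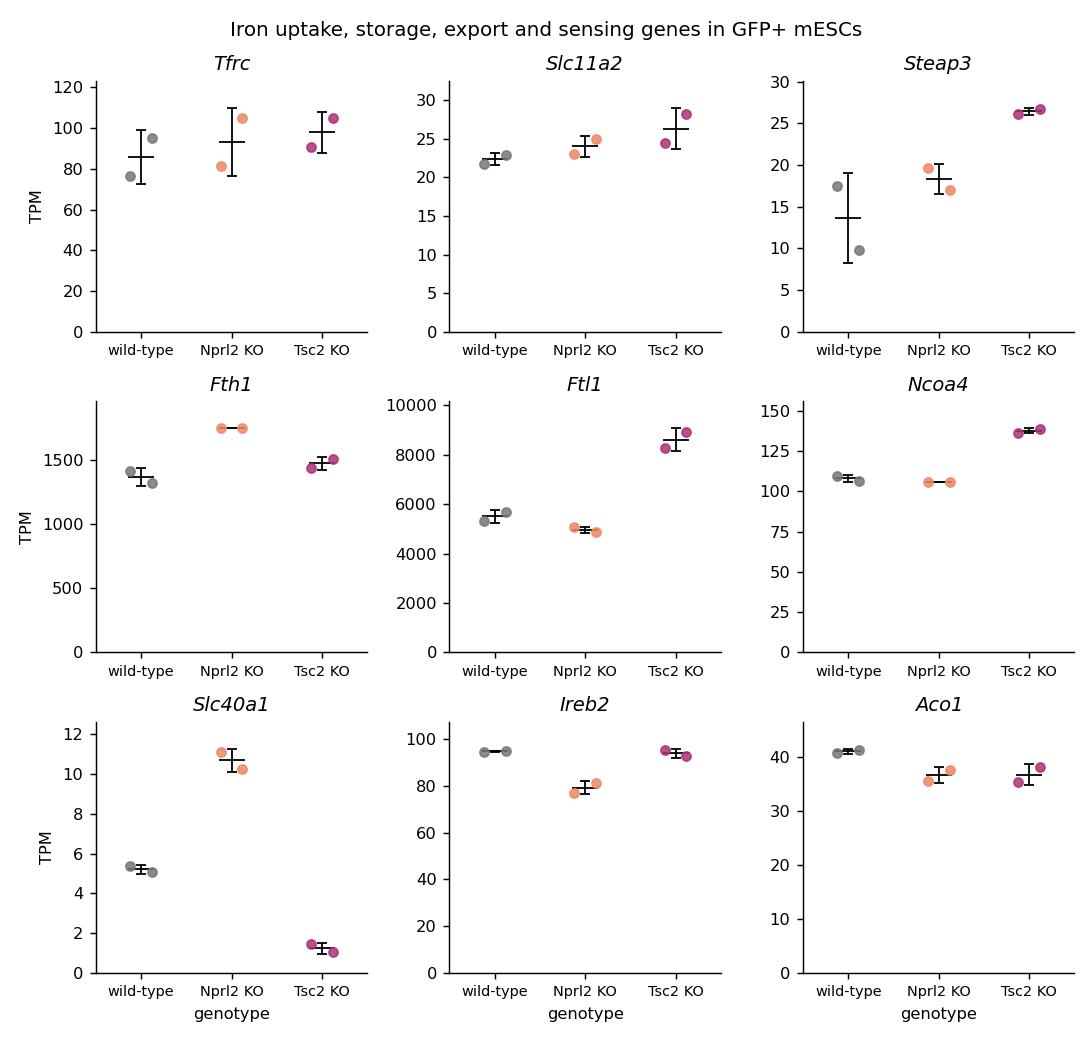
TPM of the 9 genes (vertical axes, each from 0) in wild-type, *Nprl2* KO and *Tsc2* KO GFP+ mESCs (horizontal axes), with 1 point per library and bars for the mean and SD of 2 libraries. *Slc40a1* is highest in *Nprl2* KO and lowest in *Tsc2* KO, *Fth1* is highest in *Nprl2* KO, and *Ftl1*, *Ncoa4* and *Steap3* are highest in *Tsc2* KO.

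In all, 2 of the 9 genes were called in *Nprl2* KO, where 6.43% of 13725 genes tested were called. Both were higher, where 2.78% of all genes were called higher and 3.66% lower. In *Tsc2* KO 4 were called (29.1% of all genes), 3 higher (14.9%) and 1 lower (14.2%). Between the KOs 4 were called (34.2% of all genes), 2 higher (17.5%) and 2 lower (16.6%) in *Tsc2* KO. *Slc40a1* was the only gene of the 9 called in both KOs, with opposite signs. The median log2 fold change over the 9 genes was 0.162 for the loss of *Nprl2* and 0.154 for that of *Tsc2*, beside 0.001 and 0.005 over all genes tested. Both medians are the value of *Tfrc*, which was called in neither KO. Without wild-type replicate 1 its log2 fold changes were -0.011 and -0.018. Both KOs were compared with the same wild-type libraries.

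Of the 9 genes, 4 have more than 1 transcript in the files. For *Slc11a2*, the transcript that carries the 3′ UTR motif printed above held on average 57.5% to 73.3% of the gene's TPM in each group. Its share varied widely between day 0 libraries, from 51.4% to 73.3%. The other transcript made up the rest. *Fth1* came almost wholly from 1 transcript, at least 99.98% on average in each group, and *Steap3* from 1 at 93.8% or more. *Ncoa4* was divided differently in the 2 sets of libraries. Its transcript of 4043 bases held 77.3% ± 3.5 (SD, n = 2) in wild-type GFP+ cells, 77.2% ± 4.1 in *Nprl2* KO and 69.1% ± 3.5 in *Tsc2* KO. In the time course it held 11.3% to 20.2% on average, where the transcript of 3953 bases held 78.6% to 86.3%. kallisto divides reads that transcripts share, and GFP+ and time-course libraries were not compared by a test.

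The other genes of iron handling were counted by lists written from general knowledge. Of 82 genes, 70 were tested in the time course and 68 in GFP+ cells. At day 1, 28 were higher and 18 lower than at day 0, at day 2, 20 and 25, and at day 3, 24 and 28, with medians of 0.117, -0.050 and -0.044. In *Nprl2* KO 2 were higher and 1 lower with a median of -0.011. These 3 calls became 0 to 2 with a library left out, 0 without *Nprl2* KO replicate 1 and 1 without wild-type replicate 1. In *Tsc2* KO 19 were higher and 5 lower with a median of 0.124. The shares of all genes called in these comparisons, and the medians of all genes, are those given above.

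Among export and uptake genes outside the 9, *Heph*, a ferroxidase that works with ferroportin, was at 0.327, 0.199 and 0.0787 CPM in the day 0 libraries and at 6.79, 5.14 and 6.17 CPM at day 3. The day 0 values lie around the level of 3 counts (0.196 to 0.24 CPM in those libraries), so no fold change is given, and the gene passed the filter on low counts only through the later days. It was the 1 gene of 5 in its list that passed in the time course, and none did in GFP+ cells. *Slc39a8*, a transporter of zinc, manganese and iron, rose from 1.34 ± 0.34 CPM (SD, n = 3) at day 0 to 32.5 ± 8.2 at day 3, a log2 fold change of 4.58 ± 0.24 (adjusted p = 1.27e-11). At day 1 its log2 fold change was 0.37 ± 0.35 (adjusted p = 0.376). In the same list as *Slc39a8*, *Slc39a14*, a related iron and zinc transporter, had the largest rise at day 1 (1.41 ± 0.22, adjusted p = 4.34e-04), and *Trf*, which encodes transferrin, the largest fall at day 3 (-1.55 ± 0.28, adjusted p = 6.07e-05).

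**Figure D5:**
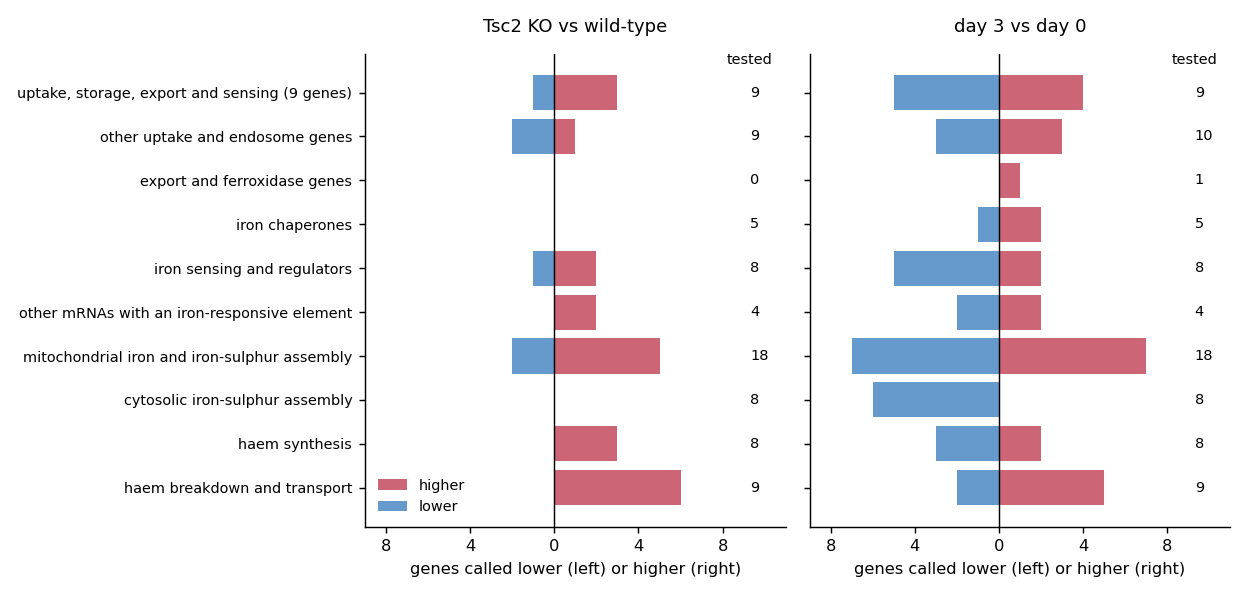
Number of genes called higher (right of 0) or lower (left of 0) at adjusted p under 0.05 (horizontal axes) in each list of iron genes (vertical axis) for *Tsc2* KO against wild-type and day 3 against day 0, with the number tested at the right of each row. In *Tsc2* KO, 6 of 9 genes for haem breakdown and transport are higher, and at day 3, 6 of 8 genes of cytosolic iron-sulphur assembly are lower.

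Of the genes for haem breakdown and transport, 6 of 9 were higher in *Tsc2* KO (14.9% of all genes), with a median of 0.613. The part of the shift on chromosome 1 in these calls was not tested. The largest rise was that of the haem transporter relative *Flvcr2*, 1.59 ± 0.38 (adjusted p = 0.00872), at 1.78 ± 0.20 CPM in wild-type and 5.31 ± 2.64 in *Tsc2* KO (SD, n = 2). In *Nprl2* KO 2 of 9 were higher (2.78% of all genes), *Flvcr1*, a haem exporter (0.53 ± 0.14, adjusted p = 0.0424), and *Hmox1* (0.45 ± 0.08, adjusted p = 0.00713). *Hmox1*, the inducible haem oxygenase that frees iron from haem, also rose by 1.32 ± 0.08 from day 0 to day 1 (adjusted p = 4.96e-11), from 62.1 ± 2.8 to 155 ± 10 CPM, and was back at 60.4 ± 2.0 CPM at day 3.

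Of the genes for cytosolic iron-sulphur assembly, 3 of 8 were higher (30.1% of all genes) and 4 lower (30.8%) at day 1. At day 2, 5 were lower (32.4%), and at day 3, 6 were lower (35.9%). The medians were -0.120, -0.474 and -0.624 at days 1, 2 and 3. The largest fall at day 3 was that of *Nubp2*, a scaffold protein (-1.06 ± 0.08, adjusted p = 3.97e-10). Of the 18 mitochondrial genes tested, 7 were higher (35% of all genes) and 7 lower (35.9%) at day 3. *Hscb*, a co-chaperone of cluster assembly, had the largest fall on each day, -1.78 ± 0.21 at day 1 (adjusted p = 7.62e-07), and the largest rise in *Tsc2* KO, 1.00 ± 0.18 (adjusted p = 0.0013). *Glrx5*, a glutaredoxin of the same pathway, was lower in *Nprl2* KO (-0.57 ± 0.12, adjusted p = 0.0174) and in *Tsc2* KO (-0.69 ± 0.12, adjusted p = 0.00139).

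Of the genes for haem synthesis, 3 of 8 were higher in *Tsc2* KO (14.9% of all genes), with *Ppox*, which lies on chromosome 1, the largest (0.98 ± 0.14, adjusted p = 2.51e-04). At day 3, 2 were higher (35% of all genes) and 3 lower (35.9%), and *Uros* had the largest fall (-1.14 ± 0.13, adjusted p = 2.64e-07). Of 5 iron chaperones, at day 3 *Pcbp3* had the largest rise (0.69 ± 0.10, adjusted p = 5.11e-06) and *Glrx3* the only fall (-0.31 ± 0.06, adjusted p = 1.06e-04).

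Of the 8 regulators, 2 were higher (14.9% of all genes) and 1 lower (14.2%) in *Tsc2* KO. *Nfe2l2*, a transcription factor of the antioxidant response for which ferritin genes are known targets, rose by 0.70 ± 0.09 (adjusted p = 1.24e-04), and *Mycn* fell by 2.38 (SE 0.08, adjusted p = 9.39e-09). At day 3, 2 were higher (35% of all genes) and 5 lower (35.9%). *Epas1*, which encodes the hypoxia factor HIF-2α and whose mRNA has a known iron-responsive element, rose by 1.09 ± 0.11 at day 1 (adjusted p = 5.42e-07) and then fell, to -3.52 ± 0.16 of day 0 at day 3 (adjusted p = 5.91e-12). Of the 4 tested genes in the list of other mRNAs with such an element, *Cdc42bpa*, also on chromosome 1, had the largest rise in *Tsc2* KO (0.59 ± 0.08, adjusted p = 1.49e-04).

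Genes with the most similar course were found by Pearson correlation of log2 CPM over the 12 time-course libraries among 14382 genes, given as a description, since the libraries share 4 days and the first of many genes will always correlate highly. For *Slc40a1* they were *Trio*, *Sox3* and *Cdh1* (r = 0.997, 0.996 and 0.995), of which *Sox3* is among the formative markers above. For *Ncoa4* they were *Ash2l*, *Epas1* and *Pdgfc* (0.996 each), and for *Fth1* they were *Cstf2*, *Rpf2* and *Gart* (0.984 to 0.977). For *Ftl1* the first 3 were the *Mir692* rows (0.969 to 0.942) that share sequence with it. For *Aco1* they included *Mfsd1* and *Nubp1* (0.988 and 0.984), of which *Nubp1* is in the list of cytosolic iron-sulphur assembly, and for *Ireb2* they were *Cdk11b*, *Taf7* and *Nop58* (0.986 to 0.978). The uptake genes had lower values, with *Ccdc166* for *Tfrc* (0.971), *Cutal* for *Slc11a2* (0.968) and *Pdk1* for *Steap3* (0.940) at the head.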

How the data were processed

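Total RNA was extracted with a column kit from the time-course and GFP+ mESCs, and the study's methods describe stranded mRNA libraries with paired-end reads for the GFP+ cells. Per the submitters' processing notes the authors used kallisto 0.42.1, DESeq2 and the genome mm10. They deposited, per RefSeq transcript, estimated counts and TPM, neither normalized between libraries, and a TPM table per gene, in which 162 of 162 values of the 9 genes matched the sum over transcripts (relative tolerance 0.001). Further tables hold the authors' own log2 fold changes and p values for each KO and were not used.

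Here, 33713 of 34079 transcripts were assigned through RefSeq (GRCm38.p6) and 192 through GENCODE M21, 174 being left out, and estimated counts were summed for 24296 genes and rounded. Between 1.65% and 3.57% of counts had no gene. No ferritin pseudogene row of *Fth1* or *Ftl1* was among the rows, so their reads may be counted with the ferritin genes. edgeR 4.0.16 in R 4.3.3 (TMM, filterByExpr, robust quasi-likelihood, Benjamini-Hochberg over all genes tested) was fitted to the 6 GFP+ and the 12 time-course libraries separately. SE is the log2 fold change divided by the root of F. In simulated counts for *Nprl2* KO against wild-type (13725 genes), 74% of log2 changes of 1 and 93% of changes of 2 were recovered, and for day 1 against day 0 (14382 genes) 81% and 96%. The simulation gave every gene the same spread, above the common spread of the fits (coefficient of variation 0.0777 for GFP+ and 0.0728 for time-course libraries). These shares thus do not give the sensitivity of the fits themselves.

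The genes named are the 9, *Nprl2*, *Tsc2*, marker genes, the 3 most correlated genes for each of the 9 (1 is not reported here), and for each list the called gene with the largest rise and fall per comparison. *Hmox1* in *Nprl2* KO and at day 3 and *Slc39a8* at day 1 were chosen after their values were seen. The 9 genes and the lists were chosen with earlier results of these data known. The alternatives were DESeq2 1.42.0, upper-quartile normalization, no filter, at least 10 counts in every library, only the groups compared, the replicate number as a block, limma 3.58.1 on log2(TPM + 1) and log2(TPM + 0.1), and each library left out. Time-course numbers did not pair the libraries (correlations of same-numbered libraries from -0.223 to 0.265).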

Additional observations from a re-analysis of the deposited data

Results flagged for a closer look

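The effects of the 2 KOs on 4 of the 9 genes differed in the direct edgeR comparison of *Tsc2* KO with *Nprl2* KO, which tests the difference of the 2 effects because both are taken against the same wild-type libraries. In that comparison 34.2% of all 13725 genes tested were called, against which the 4 are to be read. The difference was -3.19 for *Slc40a1* (adjusted p = 3.56e-07), 0.75 for *Ftl1* (adjusted p = 4.15e-06), 0.30 for *Ncoa4* (adjusted p = 0.00197) and -0.29 for *Fth1* (adjusted p = 0.00335), as log2 fold changes. All 4 were called in each of the 6 fits that leave out 1 library. For *Slc40a1* the KOs moved to opposite sides of wild-type, and both libraries of each KO lay on the same side.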

How the results depend on the processing

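Of 648 values of single genes under 9 alternatives (1 of them, the *Mir692* counts, added after seeing the data), 591 kept their direction and side of the threshold, 16 lost and 19 gained a call, and 22 changed sign. Of 702 values with 1 library left out, 643 kept both, 24 lost and 13 gained a call, and 22 changed sign. The sign changes touched no called value. The number of the 9 genes called in *Nprl2* KO was 2, 5 without a filter on low counts (*Steap3*, *Ftl1* and *Ireb2* added) and 1 to 3 with a library left out. In *Tsc2* KO it was 4, and 7 with the replicate block (*Tfrc*, *Slc11a2* and *Aco1* added). At day 2 against day 1 it was 8, 5 in limma on either TPM scale, and 5 to 8 with a library left out. Among the lists of iron genes, *Nprl2* KO had 3 calls, 7 without a filter, 11 with the replicate block and 0 to 2 with a library left out, *Tsc2* KO had 24 (14 to 26 with a library left out) and the KOs differed in 21 (12 to 22). Over all genes *Nprl2* KO had 883 calls, 1667 without a filter, 2072 with the block and 339 to 783 with a library left out, *Tsc2* KO 3996 (2225 to 3974), the KOs between them 4692 (2974 to 4791) and day 3 against day 2 4525 (2969 to 5055). GFP+ libraries with the same number deviated together (correlations 0.219 to 0.405), but share only a number. The block also added calls of *Ireb2* in *Nprl2* KO (adjusted p = 0.0172), of *Steap3* (0.0321) and *Ireb2* (0.024) between the KOs and of *Tfrc* at day 2 against day 0 (0.0188), and changed no other call of the 9 genes. The cause was not tested.

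Of 18 orders of groups by mean TPM, 11 were the same by TMM-normalized CPM. The values that changed sign were these log2 fold changes. Under limma on log2(TPM + 1) and log2(TPM + 0.1), *Ncoa4* in *Nprl2* KO gave -0.032 and -0.032, *Tfrc* and *Aco1* between the KOs 0.080 and 0.081, and 0.0008 and 0.0009, *Ftl1* and *Ireb2* at day 1 -0.018 and -0.018, and -0.064 and -0.064, *Fth1* at day 2 against day 1 0.022 and 0.022, and *Slc11a2* at day 3 against day 2 0.079 and 0.082. The block gave 0.0008 for *Tfrc* between the KOs, DESeq2 gave 0.0018 for *Slc11a2* at day 3 against day 2, and upper-quartile normalization gave -0.016 for *Ireb2* at day 1 and -0.012 for *Aco1* at day 3 against day 2. For *Ireb2* at day 1 no filter gave -0.0019, at least 10 counts -0.0030 and only the 2 days -0.0071, which for *Aco1* at day 3 against day 2 gave -0.0022. With a library left out, the ranges in the KOs were -0.030 to 0.34 for *Tfrc* and -0.0029 to 0.013 for *Ncoa4* (*Nprl2* KO), -0.018 to 0.33 for *Tfrc* (*Tsc2* KO), and -0.17 to 0.19 (*Tfrc*) and -0.042 to 0.15 (*Slc11a2*) between the KOs. They were -0.069 to 0.019 (*Slc11a2*) and -0.029 to 0.044 (*Ireb2*) at day 1, -0.15 to 0.0004 for *Fth1* at day 2 against day 1, and -0.072 to 0.042 (*Slc11a2*), -0.19 to 0.037 (*Slc40a1*) and -0.011 to 0.039 (*Aco1*) at day 3 against day 2.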
